A study of Mus musculus with 3 samples.

Results

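Pericytes with few Myh11 transcripts were examined in single-cell libraries of injured mouse muscle. Myh11 encodes the smooth muscle myosin heavy chain. Members were droplets with at least 1000 UMIs (unique molecular identifiers, 1 per captured RNA molecule), under 20% mitochondrial UMIs, at least 2 Rgs5 UMIs, at least 4 UMIs of Rgs5, Notch3 and Kcnj8 together, fewer than 5 Myh11 UMIs and none of Cdh5, Ptprc or Pdgfra. The gate selected 61 of the 19707 barcodes in the 3 libraries, namely 13, 31 and 17 barcodes in replicates 1, 2 and 3. The cells were chosen by their measured UMIs of those 7 genes, so levels of those genes are given as description, with no test. Genes whose UMIs move with Myh11 were drawn down along with it, and genes of endothelial, immune and Pdgfra-positive cells with Cdh5, Ptprc and Pdgfra.

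The libraries came from quadriceps of C57BL/6 wild-type mice in which a volumetric muscle loss defect of the hindlimb had been filled with polycaprolactone (PCL) particles and left for 6 weeks. Muscle and fibrotic implant were made into a suspension, dead cells were removed, and magnetically separated CD45-positive and CD45-negative cells were counted and recombined in equal numbers before 3′ library preparation (10x Genomics v3.1 chemistry). All 3 libraries belong to this 1 group, so there is no uninjured or implant-free reference, and every comparison below sets pericytes against other cells of the same suspensions. Nothing in the labels ties a replicate to an animal of its own. Each p-value therefore reflects how differences between cell classes varied among these 3 libraries alone, and that variation could be technical.

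Pericytes are mural cells embedded in the basement membrane of capillaries and small venules, where they contact endothelial cells through peg-and-socket junctions. They are recruited by endothelial platelet-derived growth factor B acting on the receptor Pdgfrb, and their maturation depends on Notch3 signalling. They regulate capillary tone and permeability, and in injured skeletal muscle perivascular cells are known as a source of matrix, of inflammatory signals and, in some lineage-tracing studies in mice, of other mesenchymal cells.

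Against 4582 to 8138 barcodes per library that passed the depth and mitochondrial limits, pericytes made up 0.231% of barcodes in replicate 1, 0.381% in replicate 2 and 0.371% in replicate 3, with exact 95% Clopper-Pearson intervals of 0.123% to 0.395%, 0.259% to 0.540% and 0.216% to 0.593% that cover counting error only. The mean was 0.328% ± 0.0839 (SD, n = 3), and the 3 intervals overlapped. The denominator was set in part by the recombination of the CD45 fractions. Pericyte depth differed between libraries, with median UMIs per cell of 7187, 14055 and 7086 in replicates 1, 2 and 3 and a range over all 61 cells of 1048 to 30646. Summed over cells, the pericytes held 136163, 451937 and 159380 UMIs, so 1 UMI corresponded to 6.66, 2.23 and 6.11 CPM (UMI counts scaled to a common library size), and the deepest cell gave 22.5%, 6.37% and 13.3% of its library's sum. No pericyte barcode occurred in another library, although 10 to 13 barcodes of all kinds were shared by each pair of libraries. Scrublet doublet scores placed 1, 2 and 1 pericytes among the top-scoring barcodes.

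The pericytes were compared with 3 other classes gated in the same way on raw UMIs. Myh11-positive mural cells had at least 5 Myh11 UMIs and none of Cdh5, Ptprc or Pdgfra (58, 106 and 60 cells), endothelial cells had at least 2 UMIs each of Cdh5 and Pecam1 (258, 285 and 181 cells), and fibroblasts had at least 2 Pdgfra UMIs (1965, 5000 and 1855 cells). Endothelial cells and fibroblasts were also limited to fewer than 2 Rgs5 and 5 Myh11 UMIs and to no UMI of the other non-mural gate genes, so mural genes were drawn down in them. UMIs were summed per class and library, and CPM values are given throughout in the order of replicates 1, 2 and 3. Log2 differences are pericytes minus the class compared, with their standard errors. A gene was called higher or lower in pericytes when edgeR's quasi-likelihood test with the library as a block gave a Benjamini-Hochberg adjusted p under 0.05 over all genes tested and the log2 difference was at least 1 in size.

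The label was checked against genes outside the gate. Pdgfrb, the receptor through which platelet-derived growth factor B recruits pericytes, had a UMI in 57 of the 61 cells (93.4%), against 2.90% of endothelial cells, whose library medians were 12672 to 15639 UMIs and which give a level for free RNA. Abcc9, the regulatory subunit of the vascular ATP-sensitive potassium channel, had a UMI in 53 cells (86.9%), against 10.1% of endothelial cells. Vtn was detected in 50 of 61 pericytes and Higd1b, a mitochondrial protein gene typical of capillary pericytes, in 43 of 61. The 14 listed pericyte markers that no gate used summed to 5538 to 5929 CPM in pericytes, against 4556 to 4978 CPM in Myh11-positive mural cells, 315 to 389 CPM in endothelial cells and 521 to 604 CPM in fibroblasts. Endothelial cells and fibroblasts had been limited to fewer than 2 Rgs5 UMIs by their gates.

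Markers of other cells were summed without the genes that the gates used. Of 5 such endothelial markers, Kdr and Cldn5 had no UMI in any pericyte, and the list summed to 39.97 to 89.0 CPM in pericytes, against 32.2 to 44.0 CPM in Myh11-positive mural cells and 2451 to 2537 CPM in endothelial cells. Emcn, the endothelial sialomucin endomucin, made up most of that sum: it had a UMI in 24 of 61 pericytes and was 39.97, 89.0 and 67.2 CPM in pericytes, against 28.2, 39.4 and 33.8 CPM in Myh11-positive mural cells, 524, 508 and 415 CPM in endothelial cells and at most 0.450 CPM in fibroblasts. It was called higher in pericytes than in fibroblasts (log2 difference 7.79 ± 0.40, edgeR adjusted p = 1.31e-09). The 6 immune markers summed to 51.2 to 147 CPM in pericytes, against 40.7 to 82.6 CPM in Myh11-positive mural cells, 38.8 to 62.8 CPM in fibroblasts and 18156 to 19712 CPM in Ptprc-positive droplets. Lyz2 among them had a UMI in 32.8% of pericytes at a median of 11112 UMIs, against 38.5% of fibroblasts at library medians of 25731 to 33162 UMIs, and was 53.3, 17.8 and 67.2 CPM in pericytes, against 30.4, 15.2 and 29.1 CPM in fibroblasts. The 6 fibroblast markers summed to 779 to 1306 CPM in pericytes, against 694 to 1108 CPM in Myh11-positive mural cells and 16710 to 17787 CPM in fibroblasts. The part of such RNA in the results was not tested. Pax7, Myf5 and Myod1 of satellite cells, Sox10 and Mbp of Schwann cells, Adipoq, Plin1 and Cidec of adipocytes, Mkx of tenocytes, Myh1 of muscle fibres and all 4 globin genes had no UMI in any pericyte. Of the same lists, Lpl of adipocytes had 207 UMIs in 47 of 61 pericytes, S100b of Schwann cells 5 UMIs and Chodl of satellite cells 3 UMIs. Lpl brought the adipocyte list to 153 to 311 CPM in pericytes. That list was 268 to 478 CPM in Myh11-positive mural cells, 11.8 to 56.8 CPM in endothelial cells and 247 to 371 CPM in fibroblasts. Lpl and S100b were called higher than in endothelial cells. The remaining muscle fibre markers brought their list to 31.2 to 85.5 CPM, and the tenocyte list reached 0 to 187 CPM.

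The tenocyte value came from 1 cell. That cell, in replicate 2 and with 16880 UMIs, held all 77 Fmod UMIs of the pericytes together with 93 of the 196 Dcn UMIs, 74 of the 232 Emp1 UMIs, 6 Tnmd UMIs and 1 Scx UMI. It had 9 Rgs5 UMIs and 5 Pdgfrb UMIs but no UMI of Notch3, Kcnj8 or Abcc9. Fmod encodes fibromodulin and Tnmd tenomodulin, both abundant in tendon. The cell met the gate through Rgs5 alone.

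At the Myh11 limit, 22 members with 3 or 4 Myh11 UMIs held 12.7 Acta2 UMIs per 10000, whereas the 24 cells just outside, with 5 or 6 Myh11 UMIs and otherwise the same gate, held 9.62. The 15 members without a Myh11 UMI held 5.03 Acta2, 13.8 Abcc9 and 5.11 Kcnj8 UMIs per 10000, and the cells just outside held 6.95 Abcc9 and 1.62 Kcnj8 UMIs per 10000. The members nearest to the limit were thus closer to the cells beyond it in these genes than to members with no Myh11 UMI. Rgs5 was far from its limit in most members: 56 had more than 10 UMIs, 4 had 4 to 10, and the 1 with 2 or 3 was a shallow cell of 1603 UMIs with 22 Acta2 UMIs. A single otherwise eligible cell lay just outside with 1 Rgs5 UMI, and it had 12 Notch3 UMIs.

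The strongest marker differences from the Myh11-positive mural cells, given as description, were in the ATP-sensitive potassium channel. Kcnj8, its pore subunit and a gate gene, was 400, 254 and 391 CPM in pericytes, against 134, 104 and 98.9 CPM in Myh11-positive mural cells, a log2 difference of 1.56. Abcc9 was 1146, 815 and 898 CPM in pericytes and 456, 478 and 387 CPM in Myh11-positive mural cells, a log2 difference of 1.10. In both genes every pericyte library lay above every Myh11-positive library. Rgs5, a regulator of G-protein signalling, did not separate the classes, at 6821, 7756 and 5739 CPM in pericytes and 7063, 7244 and 5317 CPM in Myh11-positive mural cells. Pdgfrb was 1252, 1077 and 861 CPM in pericytes, against 806, 728 and 708 CPM in Myh11-positive mural cells, with no overlap. Cspg4, which encodes the NG2 proteoglycan used widely as a pericyte marker, was 133, 75.7 and 24.4 CPM in pericytes and 148, 124 and 145 CPM in Myh11-positive mural cells. Of the 14 listed markers outside the gate that passed the count filter, 8 had a positive difference, with a median of 0.05 on the log2 scale beside −0.05 over all genes. The marker list as a whole therefore sat at the level of all genes in this comparison.

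Kcnj8 and Abcc9 are neighbours on mouse chromosome 6, and both were among the 6 of 14 marker promoters (42.9%) that held the hexamer TGGGAA, the core to which the Notch effector RBPJ binds. Across 32851 RefSeq promoters of the same length, 25.6% held it on either strand. The promoters of the pair are shown because these channel genes were the markers most different between the mural classes. They run from 250 bases before to 50 bases after the gene start on the minus strand of GRCm38.p6, at chr6:142571565-142571864 for Kcnj8 and chr6:142702225-142702524 for Abcc9, with TGGGAA in capitals. The hexamer starts at 0 relative to the gene start in Kcnj8 and at −221 in Abcc9. A match describes the letters of this window and is no evidence of a bound site.
Kcnj8: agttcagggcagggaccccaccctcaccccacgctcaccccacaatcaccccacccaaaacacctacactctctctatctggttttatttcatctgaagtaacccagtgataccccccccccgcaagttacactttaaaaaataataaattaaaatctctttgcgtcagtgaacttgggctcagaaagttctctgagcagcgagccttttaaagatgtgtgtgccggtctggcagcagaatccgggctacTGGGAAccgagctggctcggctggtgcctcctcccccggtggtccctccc
Abcc9: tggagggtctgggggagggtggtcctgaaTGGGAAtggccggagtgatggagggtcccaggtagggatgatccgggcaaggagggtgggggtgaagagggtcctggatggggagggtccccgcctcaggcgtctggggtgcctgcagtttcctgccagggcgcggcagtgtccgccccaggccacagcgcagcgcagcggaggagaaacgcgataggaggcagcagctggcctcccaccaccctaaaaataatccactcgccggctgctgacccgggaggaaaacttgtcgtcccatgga

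Contractile genes were lower throughout in pericytes, again as description, since the Myh11 limit draws genes that travel with Myh11 along with it. All 18 contractile genes that passed the count filter had a negative log2 difference from Myh11-positive mural cells, with a median of −1.86. Acta2, smooth muscle actin, was 959, 734 and 757 CPM in pericytes, against 4931, 4167 and 4470 CPM in Myh11-positive mural cells. Tagln, the actin-binding protein transgelin, was 393, 347 and 501 CPM in pericytes, against 2902, 2441 and 2810 CPM in Myh11-positive mural cells. Neither gene overlapped between the classes. Cnn1, calponin, had no UMI in any pericyte and 64.5, 55.8 and 72.7 CPM in Myh11-positive mural cells, at least 16.2-fold lower in pericytes against a floor of 3 UMIs over the group. Myocd, the coactivator of serum response factor that drives smooth muscle genes, had 3 UMIs in pericytes and 300 in Myh11-positive mural cells, a ratio of 20.6 with a counting interval of 6.99 to 101.

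The contractile difference was uneven across the list. Cald1, caldesmon, was 1932, 1945 and 1722 CPM in pericytes and 2609, 2437 and 2353 CPM in Myh11-positive mural cells, a log2 difference of −0.40. Des, the intermediate filament desmin, was 460, 601 and 702 CPM in pericytes and 817, 726 and 841 CPM in Myh11-positive mural cells, a log2 difference of −0.43. Lmod1, the actin nucleator leiomodin, was 19.98, 33.4 and 36.6 CPM in pericytes, against 264, 251 and 257 CPM in Myh11-positive mural cells, and Myl9, a myosin regulatory light chain, was 353, 280 and 354 CPM, against 1376, 1474 and 1359 CPM. Differences were thus small for the cytoskeletal genes Cald1 and Des and large for Lmod1 and Myl9. Summed with the gate gene Myh11 included, the list reached 6209 to 7108 CPM in pericytes and 20397 to 21666 CPM in Myh11-positive mural cells. Endothelial cells held 1011 to 1053 CPM and fibroblasts 1181 to 1279 CPM. The Myh11 limits of the gates thus entered these sums. Within those limits, the summed contractile transcripts of pericytes lay above both non-mural classes.

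**Figure D1:**
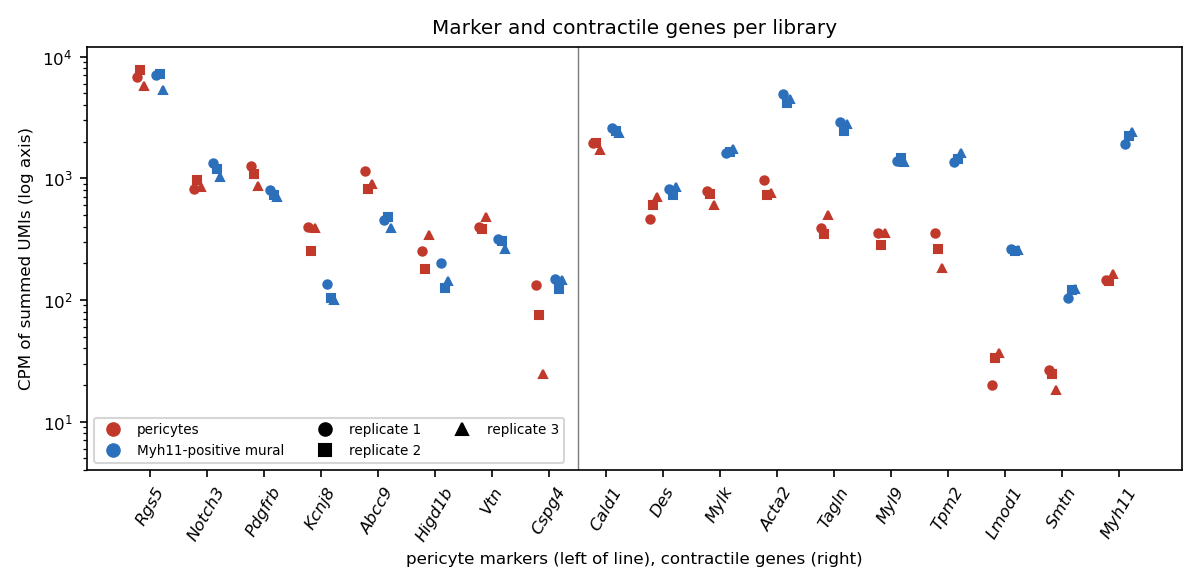
CPM of the summed UMIs (log axis) of 8 pericyte markers, left of the line, and 10 contractile genes, right of it, in pericytes (red) and Myh11-positive mural cells (blue), with a symbol for each of the 3 replicates. Kcnj8 (254 to 400 CPM) and Abcc9 in pericytes lie above the Myh11-positive mural cells (98.9 to 134 CPM for Kcnj8), Rgs5 overlaps, and the contractile genes of pericytes lie below.

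The CArG box, the site of serum response factor, was found in 1 of 17 promoters of the contractile list (5.88%), against 1.63% of all promoters, with both strands searched. The match was in Myl9, at −161 from the gene start, and it is shown in capitals for the plus strand of GRCm38.p6 at chr2:156775214-156775513. In the pericyte marker list 1 of 14 promoters (7.14%), that of Trpc6, also held a CArG box, so the box was not particular to the contractile list. No match in the other windows says only that these letters are not in the 300 bases read.
Myl9: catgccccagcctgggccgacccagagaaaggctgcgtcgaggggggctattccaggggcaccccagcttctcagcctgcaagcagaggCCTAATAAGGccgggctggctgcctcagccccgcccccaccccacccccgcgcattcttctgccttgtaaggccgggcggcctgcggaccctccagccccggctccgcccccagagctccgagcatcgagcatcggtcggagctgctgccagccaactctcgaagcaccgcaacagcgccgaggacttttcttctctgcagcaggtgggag

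Set against the Myh11-positive mural cells in the tested part of the transcriptome, pericytes had 57 of 12012 genes called higher and 193 called lower. The genes called lower that are given here are in none of the gene lists. Pln, phospholamban, the inhibitor of the sarcoplasmic calcium pump, had no UMI in pericytes and was 84.6, 148 and 199 CPM in Myh11-positive mural cells, at least 37.4-fold lower in pericytes (edgeR adjusted p = 8.72e-06). Sorbs2, an actin-associated adaptor, was 6.66, 31.2 and 48.8 CPM in pericytes, against 407, 392.3 and 499 CPM in Myh11-positive mural cells (log2 difference −3.83 ± 0.29, edgeR adjusted p = 4.37e-06). Thsd4 had 1 UMI in pericytes and 435 in Myh11-positive mural cells, a ratio of 89.7 with a counting interval of 16.02 to 3553. No pericyte library overlapped a Myh11-positive library in these 3 genes. They were named by large differences of the same direction in all 3 libraries, so the lack of overlap adds no support. Olfml2a, Rgs7bp and Tesc, with 3, 2 and 2 UMIs in pericytes and 379, 389 and 315 in Myh11-positive mural cells, were also called lower. These 6 genes kept their call under each of the alternatives run for this comparison. Every alternative still split the classes on Myh11, so genes that travel with Myh11 were drawn down in each. The part of that split in these calls was not tested.

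Among genes called higher, Emp1, an epithelial membrane protein gene, was 226, 341 and 275 CPM in pericytes, against 36.3, 72.8 and 76.1 CPM in Myh11-positive mural cells (log2 difference 2.21 ± 0.21, edgeR adjusted p = 3.48e-05). Cpm, which encodes carboxypeptidase M, was 99.9, 84.6 and 354 CPM in pericytes, against 17.1, 29.5 and 27.1 CPM in Myh11-positive mural cells (log2 difference 2.67 ± 0.47, edgeR adjusted p = 0.00580). Groups did not overlap for either gene, which the same rule of naming favoured, and both calls held under each alternative. The calls came from few cells: Emp1 had a UMI in 33 of 61 pericytes and 31.9% of its UMIs in the cell with Fmod, and Cpm in 20 of 61 with 25.2% of its UMIs in 1 cell. Pde7b, a cyclic AMP phosphodiesterase, was 446, 84.6 and 281 CPM in pericytes, against 15.1, 43.3 and 35.5 CPM in Myh11-positive mural cells (log2 difference 2.79 ± 0.46, edgeR adjusted p = 0.00347), but without replicate 1 its adjusted p was 0.0535. S100a4 was 719, 483 and 379 CPM in pericytes, against 262, 110 and 166 CPM in Myh11-positive mural cells (log2 difference 1.59 ± 0.25, edgeR adjusted p = 0.00227), with 25.1% of its UMIs in 1 cell; with both classes limited to cells of 5000 to 20000 UMIs the difference was −1.16 (edgeR adjusted p = 0.229).

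Depth differed between these classes, with pericyte medians of 7187, 14055 and 7086 UMIs and Myh11-positive medians of 18387, 14393 and 17891 UMIs. With both limited to 5000 to 20000 UMIs, 61 genes were called higher and 172 lower, of which 23 and 132 were among the 57 and 193. With the Myh11 limit set per 10000 UMIs of the cell, 58 were called higher and 138 lower, of which 29 and 113 were shared. Thinning to 3000 UMIs left out cells with fewer, keeping 11, 30 and 13 pericytes and 57, 106 and 59 Myh11-positive mural cells. The pericyte sums were then 33000, 90000 and 39000 UMIs, against 171000, 318000 and 177000 UMIs in Myh11-positive mural cells. The sums thus still differed in depth. The calls of Col1a1, S100a4 and Pdgfd were among those lost (0.92, 0.97 and −1.92, edgeR adjusted p = 0.0239, 0.112 and 0.106). With no library block, the calls of Col1a1, Dcn, Tnc, Lox, Tgfb2, Ifit1, Ifit3 and Oasl2 against Myh11-positive mural cells were lost (edgeR adjusted p = 0.0965, 0.272, 0.104, 0.0600, 0.205, 0.206, 0.271 and 0.0679). Against Myh11-positive cells that pass the Rgs5 gate, those of Col1a1, Lox, Tgfb2, Tgfb3, Foxc1 and Ifit3 were among those lost (edgeR adjusted p = 0.0804, 0.169, 0.107, 0.113, 0.159 and 0.0719).

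Basement membrane genes differed by laminin chain between the mural classes. Of 14 genes tested, Lama2 was called higher and Lama5 lower, against backgrounds of 0.475% of all genes called higher and 1.61% called lower, and the median log2 difference of the list was 0.48. Lama2, the chain of laminin-211, was 633, 534 and 604 CPM in pericytes, against 188, 304 and 349 CPM in Myh11-positive mural cells (log2 difference 1.07 ± 0.22, edgeR adjusted p = 0.0165). It was spread over 48 of the 61 cells, and without replicate 1 the difference was 0.77 (edgeR adjusted p = 0.143). The Lama2 call was also lost with Scrublet top scores left out (0.88) and with cells of at least 5000 UMIs (1.00, just under the size required). Against Myh11-positive cells that pass the Rgs5 gate the difference was 0.91 (edgeR adjusted p = 0.0804). Lama5, the chain of laminin-511, was 19.98, 15.6 and 18.3 CPM in pericytes, against 132, 125 and 145 CPM in Myh11-positive mural cells (log2 difference −2.93 ± 0.30, edgeR adjusted p = 4.50e-05), and this call held under each alternative. Col4a1, a chain of basement membrane collagen IV, was 3990, 4157 and 3437 CPM in pericytes, against 2096, 2286 and 2395 CPM in Myh11-positive mural cells, with a difference of 0.77 ± 0.14 (edgeR adjusted p = 0.00833) that was under the size required for a call. Pericyte libraries lay apart from Myh11-positive libraries in all 3 of these genes.

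Against endothelial cells, 12.6% of 12044 genes were called higher and 11.4% lower, and 3 of the 14 basement membrane genes were called higher and 2 lower, with a median of 0.39 beside −0.06 over all genes. Lama2 was 1.35, 3.80 and 0.985 CPM in endothelial cells (log2 difference 8.03 ± 0.32, edgeR adjusted p = 9.11e-11). Hspg2, the heparan sulfate proteoglycan perlecan, was 246, 249 and 220 CPM in pericytes, against 606, 523 and 438 CPM in endothelial cells (log2 difference −1.12 ± 0.16, edgeR adjusted p = 5.39e-05). Col4a1 was 2248, 1973 and 1470 CPM in endothelial cells, with a difference of 1.03 ± 0.14 (edgeR adjusted p = 3.88e-05) that fell under 1 without replicate 2 (0.96) or replicate 3 (0.92). Lamb2, a laminin beta chain, was 193, 245 and 134 CPM in pericytes, against 79.3, 69.2 and 91.6 CPM in endothelial cells (log2 difference 1.34 ± 0.20, edgeR adjusted p = 7.59e-05; 0.88 without replicate 2 and 0.73 with cells thinned to 3000 UMIs). All these groups lay apart.

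Against fibroblasts, 8.77% of 12044 genes were called higher and 10.5% lower, and 5 of 14 basement membrane genes were higher and 1 lower (median 0.37 beside −0.10 over all genes). Col4a1 was 539, 509 and 528 CPM in fibroblasts, below every pericyte library (log2 difference 2.87 ± 0.15, edgeR adjusted p = 1.44e-09), and Col4a2 rose with it (2.78 ± 0.14, edgeR adjusted p = 1.28e-09). Lama5, low in pericytes next to the other vascular classes, was 0.202, 0.196 and 0.0896 CPM in fibroblasts (log2 difference 6.60 ± 0.65, edgeR adjusted p = 1.88e-06). Agrn, which encodes the proteoglycan agrin, was 113, 66.8 and 42.7 CPM in pericytes, against 15.3, 14.8 and 16.5 CPM in fibroblasts (log2 difference 2.22 ± 0.27, edgeR adjusted p = 1.78e-05).

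The lists that define mural cells were tested against the non-mural classes only. Those classes were limited to fewer than 2 Rgs5 and 5 Myh11 UMIs, while pericytes needed at least 2 Rgs5 UMIs. Genes that travel with Rgs5 were thus drawn apart by the gates, so the counts are no independent check of the label. Over all genes tested, 12.6% were called higher and 11.4% lower than in endothelial cells, and 8.77% and 10.5% than in fibroblasts. These shares are the background for the lists below as well. Of 14 pericyte markers outside the gate, 12 were called higher and none lower than in endothelial cells (median 8.10), and 13 were called higher and 1, Anpep, lower than in fibroblasts (median 4.83). Of 18 contractile genes, 13 were called higher and 1, Smtn, lower than in endothelial cells (median 4.40, or 2.52 with genes at 0 placed at their bound), and 15 were called higher and none lower than in fibroblasts (median 4.09).

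Interstitial matrix genes placed the pericytes between endothelial cells and fibroblasts. Of 27 genes, 18 were called higher and 1 lower than in endothelial cells (median 2.64), 2 were called higher and 17 lower than in fibroblasts (median −1.61), and 4 were called higher and 3 lower than in Myh11-positive mural cells (median 0.64). Col6a3, a chain of the microfibrillar collagen VI, was 2085, 2181 and 1569 CPM in pericytes, against 13.1, 26.8 and 12.2 CPM in endothelial cells (log2 difference 6.80 ± 0.25, edgeR adjusted p = 3.69e-11). Fibroblasts held 1983, 2070 and 2160 CPM of Col6a3, and the difference of −0.10 from them did not pass (edgeR adjusted p = 0.770).

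Col1a1, the main chain of fibrillar collagen I, was 2371, 3040 and 1771 CPM in pericytes, 763, 1046 and 1006 CPM in Myh11-positive mural cells, 47.9, 198 and 58.5 CPM in endothelial cells and 12914, 13625 and 14882 CPM in fibroblasts. Every pericyte library lay above the Myh11-positive and endothelial libraries and below the fibroblast libraries. Col1a1 was called higher than in Myh11-positive mural cells (log2 difference 1.33 ± 0.30, edgeR adjusted p = 0.0286) and lower than in fibroblasts (−2.58 ± 0.31, edgeR adjusted p = 1.36e-05). The first call was lost without replicate 1 (1.14, edgeR adjusted p = 0.159). A UMI of Col1a1 was present in 59 of 61 pericytes, and 1 cell held 482 of the 2012 UMIs. That cell, in replicate 2, was among the top Scrublet scores (0.414) and also held 740 of the 3443 Col3a1 UMIs. The ratio of Col1a1 to Dcn UMIs was 16.2, 9.23 and 11.2 in pericytes, against 17.6, 6.30 and 17.2 in Myh11-positive mural cells, 1.44, 1.58 and 1.09 in endothelial cells and 1.76, 1.68 and 1.91 in fibroblasts; Dcn encodes the proteoglycan decorin. Without the cell with Fmod, the ratio of replicate 2 was 21.5. The ratio of Col1a1 to Col3a1 UMIs was 0.628, 0.612 and 0.451 in pericytes (0.531 in replicate 2 without that cell), against 0.298, 0.409 and 0.439 in Myh11-positive mural cells, 0.645, 0.978 and 0.745 in endothelial cells and 0.664, 0.685 and 0.687 in fibroblasts. The first ratio was higher in both mural classes than in the non-mural classes in every library, and the second was lower. The part of free fibroblast RNA in Col1a1 was not tested.

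Dcn itself was 147, 329 and 159 CPM in pericytes, against 43.3, 166 and 58.3 CPM in Myh11-positive mural cells, and the ranges overlapped. It was called higher (log2 difference 1.31 ± 0.33, edgeR adjusted p = 0.0475), and without the cell with Fmod the difference was 0.65 (edgeR adjusted p = 0.558). Without replicate 1 or replicate 3 its adjusted p was 0.146 or 0.214. Col5a3, a minor fibrillar collagen chain, was 1179, 950 and 934 CPM in pericytes, against 487, 484 and 436 CPM in Myh11-positive mural cells (log2 difference 1.11 ± 0.19, edgeR adjusted p = 0.00528), and the groups lay apart. Without replicate 1 the difference was 1.00, just under the size required, and with cells thinned to 3000 UMIs it was 0.56 (edgeR adjusted p = 0.311). Timp1, an inhibitor of matrix metalloproteinases, was 147, 198 and 42.7 CPM in pericytes and 49.4, 59.7 and 48.2 CPM in Myh11-positive mural cells (log2 difference 1.37 ± 0.26, edgeR adjusted p = 0.0105). Replicate 3 of the pericytes lay within the range of the Myh11-positive libraries, and the call was lost without replicate 1 (edgeR adjusted p = 0.103) or replicate 2 (edgeR adjusted p = 0.413).

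The 3 interstitial matrix genes called lower than in Myh11-positive mural cells were Eln, Tnc and Lox. Eln, elastin, was 46.6, 125 and 79.4 CPM in pericytes, against 422, 312 and 260 CPM in Myh11-positive mural cells (log2 difference −1.77 ± 0.30, edgeR adjusted p = 0.00387), a call kept under each alternative. Tnc, the adhesion-modulating glycoprotein tenascin C, was 213, 639 and 42.7 CPM in pericytes, against 792, 1443 and 850 CPM in Myh11-positive mural cells (log2 difference −1.77 ± 0.34, edgeR adjusted p = 0.0105; 0.0831 without replicate 1). The collagen cross-linking enzyme Lox was 13.3, 13.4 and 6.11 CPM in pericytes, against 48.4, 57.7 and 28.7 CPM in Myh11-positive mural cells (log2 difference −2.00 ± 0.48, edgeR adjusted p = 0.0364; 0.0745, 0.306 and 0.0782 without replicates 1, 2 and 3). Pericyte libraries lay below all Myh11-positive libraries in these 3 genes.

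**Figure D2:**
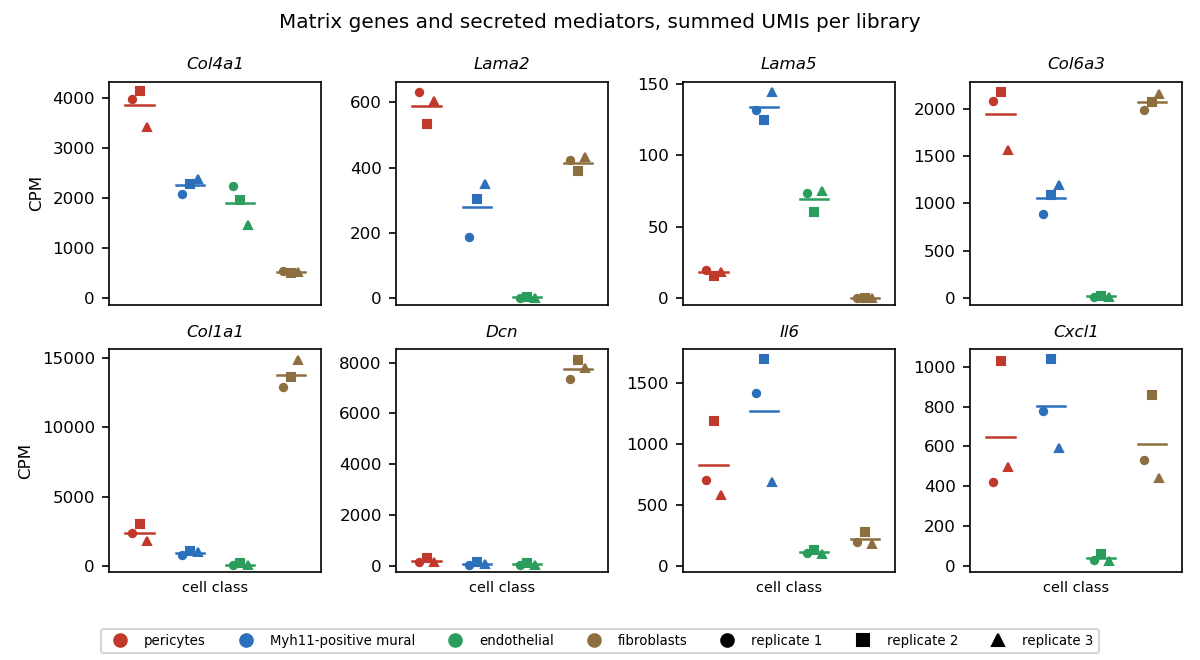
CPM of 6 matrix genes and of Il6 and Cxcl1 in pericytes, Myh11-positive mural cells, endothelial cells and fibroblasts, with a symbol per replicate and a line at the mean. Col4a1 of pericytes (3437 to 4157 CPM) lies above the other 3 classes, Lama5 (15.6 to 19.98 CPM) lies below both Myh11-positive mural and endothelial cells, and Col1a1 lies between the Myh11-positive mural cells and the fibroblasts.

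Genes of endothelial-mural signalling gave few calls between the mural classes. Against Myh11-positive mural cells none of 38 tested genes was called higher and 2 were called lower (median −0.21 over the 39 genes of the list that passed the filter, or −0.01 with genes at 0 placed at their bound). Both were ligands of the platelet-derived growth factor family. Pdgfd was 19.98, 22.3 and 12.2 CPM in pericytes, against 90.7, 98.4 and 87.1 CPM in Myh11-positive mural cells (log2 difference −2.24 ± 0.31, edgeR adjusted p = 0.000851). Pdgfb had no UMI in pericytes and was 13.1, 11.8 and 22.0 CPM in Myh11-positive mural cells, at least 3.92-fold lower in pericytes (edgeR adjusted p = 0.0380; 0.0935, 0.259 and 0.106 without replicates 1, 2 and 3). Both ligands were below every Myh11-positive library. Flt1, the receptor that binds vascular endothelial growth factor A, was 173, 465 and 482 CPM in pericytes and 225, 194 and 89.6 CPM in Myh11-positive mural cells, with overlapping ranges and a difference of 1.21 ± 0.32 that did not pass (edgeR adjusted p = 0.0603).

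Against endothelial cells, 11 of 39 genes were called higher and 19 lower (median −1.01). Ligands and receptors were found in both directions. Pdgfb had no UMI in pericytes and was 143, 124 and 122 CPM in endothelial cells, at least 33.3-fold lower in pericytes (edgeR adjusted p = 9.14e-07). Its receptor Pdgfrb, a marker of the class though not a gate gene, was 0.578, 3.04 and 3.28 CPM in endothelial cells (log2 difference 8.94 ± 0.31, edgeR adjusted p = 2.75e-11). Angpt1, the ligand that pericytes present to the endothelial receptor Tek, was 79.9, 84.6 and 91.6 CPM in pericytes, against 0.385, 1.14 and 1.64 CPM in endothelial cells (log2 difference 6.49 ± 0.46, edgeR adjusted p = 2.93e-08). Tek had 2 UMIs in pericytes and 2540 in endothelial cells, a ratio of 71.8 with a counting interval of 19.9 to 593. Fibroblasts also held Angpt1, at 106, 99.0 and 105 CPM, and the difference did not pass (−0.26 ± 0.25, edgeR adjusted p = 0.518). Angpt2, the context-dependent antagonist of Tek, was 127, 145 and 85.5 CPM in pericytes and 149, 168 and 136 CPM in endothelial cells (−0.28 ± 0.27, edgeR adjusted p = 0.486), against 1.04, 1.54 and 2.12 CPM in fibroblasts (6.33 ± 0.36, edgeR adjusted p = 4.37e-09).

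Receptors for endothelin and for sphingosine 1-phosphate also differed. Edn1, the vasoconstrictor peptide endothelin 1, had no UMI in pericytes and was 75.3, 87.1 and 78.2 CPM in endothelial cells, at least 20.5-fold lower in pericytes. Ednra, its constrictor receptor, was 246, 405 and 446 CPM in pericytes, against 0.578, 0.380 and 0 CPM in endothelial cells (log2 difference 9.93 ± 0.35, edgeR adjusted p = 2.75e-11). Ednrb was 699, 661 and 293 CPM in pericytes, against 364, 395 and 214 CPM in Myh11-positive mural cells, 37.7, 46.8 and 81.1 CPM in endothelial cells and 0.109, 0.133 and 0.161 CPM in fibroblasts. Pericyte libraries of Ednrb lay above endothelial and fibroblast libraries (3.33 ± 0.34 and 11.99 ± 0.47, edgeR adjusted p = 1.51e-06 and 7.95e-11) and overlapped the Myh11-positive ones (0.78 ± 0.31, edgeR adjusted p = 0.246). S1pr3 was 220, 234 and 256 CPM in pericytes and had no UMI in endothelial cells, at least 1061-fold higher in pericytes, while S1pr1, the main endothelial receptor for this lipid, had no UMI in pericytes and was 377, 353 and 349 CPM in endothelial cells, at least 91.9-fold lower in pericytes. The gate removed droplets with a Cdh5 UMI, and its part in these values was not tested.

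Junction genes of the signalling list were found in both directions. Cdh2, the N-cadherin of peg-and-socket contacts, was 193, 227 and 263 CPM in pericytes, against 0.578, 0 and 0.657 CPM in endothelial cells (log2 difference 9.22 ± 0.39, edgeR adjusted p = 1.23e-10). The connexin gene Gjc1 was 453, 314 and 250 CPM in pericytes, against 29.5, 31.2 and 24.96 CPM in endothelial cells (3.52 ± 0.18, edgeR adjusted p = 9.98e-10), and both genes lay apart in every library. The connexin gene Gja1 had 1 UMI in pericytes and 4342 in endothelial cells, a ratio per UMI sequenced of 246 with a counting interval of 44.0 to 9701, and Gja5 had no UMI in pericytes and was 26.4, 19.2 and 19.7 CPM in endothelial cells, at least 5.62-fold lower in pericytes (edgeR adjusted p = 0.000448). Gja4 was 66.6, 100.2 and 134 CPM in pericytes, against 49.3, 44.3 and 49.6 CPM in endothelial cells (1.07 ± 0.22, edgeR adjusted p = 0.00142; 0.95 with adjusted p 0.0729 without replicate 2, and 0.88 without replicate 3) and at most 0.0896 CPM in fibroblasts (10.65 ± 0.38, edgeR adjusted p = 2.86e-11). Against fibroblasts, 13 of 39 signalling genes were called higher and 13 lower (median −0.23, or 0 with genes at 0 placed at their bound). Egfr, the epidermal growth factor receptor, was 59.95, 91.2 and 116 CPM in pericytes, against 591, 575 and 583 CPM in fibroblasts (−2.76 ± 0.27, edgeR adjusted p = 1.88e-06). Cxcl12, a chemokine that retains leukocytes and progenitors, was 313, 251 and 171 CPM in pericytes, against 434, 688 and 533 CPM in fibroblasts (−1.20 ± 0.27, edgeR adjusted p = 0.00340; −0.67 with adjusted p 0.0871 when cells were thinned to 3000 UMIs), and its scavenging receptor Ackr3 was also lower (−5.14 ± 0.39, edgeR adjusted p = 1.04e-07).

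Of 17 Notch genes tested against endothelial cells, 3 were called higher and 9 lower in pericytes (median −1.21), beside 12.6% and 11.4% of all genes. Ligands and target genes were found in both directions. The ligand Dll4 had no UMI in pericytes and was 70.9, 113 and 73.9 CPM in endothelial cells, at least 22.4-fold lower in pericytes. The ligand Jag1 was 153, 138 and 177 CPM in pericytes, against 53.7, 61.4 and 55.8 CPM in endothelial cells (log2 difference 1.40 ± 0.16, edgeR adjusted p = 6.75e-06). Notch1 was 127, 107 and 73.3 CPM in pericytes, against 233, 237 and 242 CPM in endothelial cells (−1.21 ± 0.19, edgeR adjusted p = 0.000157). The target gene Heyl had 74 UMIs in pericytes and 3 in endothelial cells, a ratio of 436 with a counting interval of 144 to 2163. It also exceeded fibroblasts, at 99.9, 93.5 and 104 CPM in pericytes and 5.77, 4.77 and 5.59 CPM in fibroblasts (4.23 ± 0.23, edgeR adjusted p = 2.38e-09). Against Myh11-positive mural cells none of 17 Notch genes was called in either direction (median −0.45, or −0.36 with genes at 0 placed at their bound); Heyl was 113, 83.3 and 97.2 CPM there, and Hey2, 13.3, 6.68 and 18.3 CPM in pericytes against 43.3, 35.4 and 40.6 CPM, did not pass (−1.92 ± 0.56, edgeR adjusted p = 0.0862). Against fibroblasts 7 of 17 were called higher and 1 lower (median 1.56). In the Notch list, 5 of 17 promoters (29.4%) held TGGGAA and none held a CArG box. The contractile list held TGGGAA at the same share, in 5 of 17 promoters (29.4%), beside 25.6% of all promoters.

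**Figure D3:**
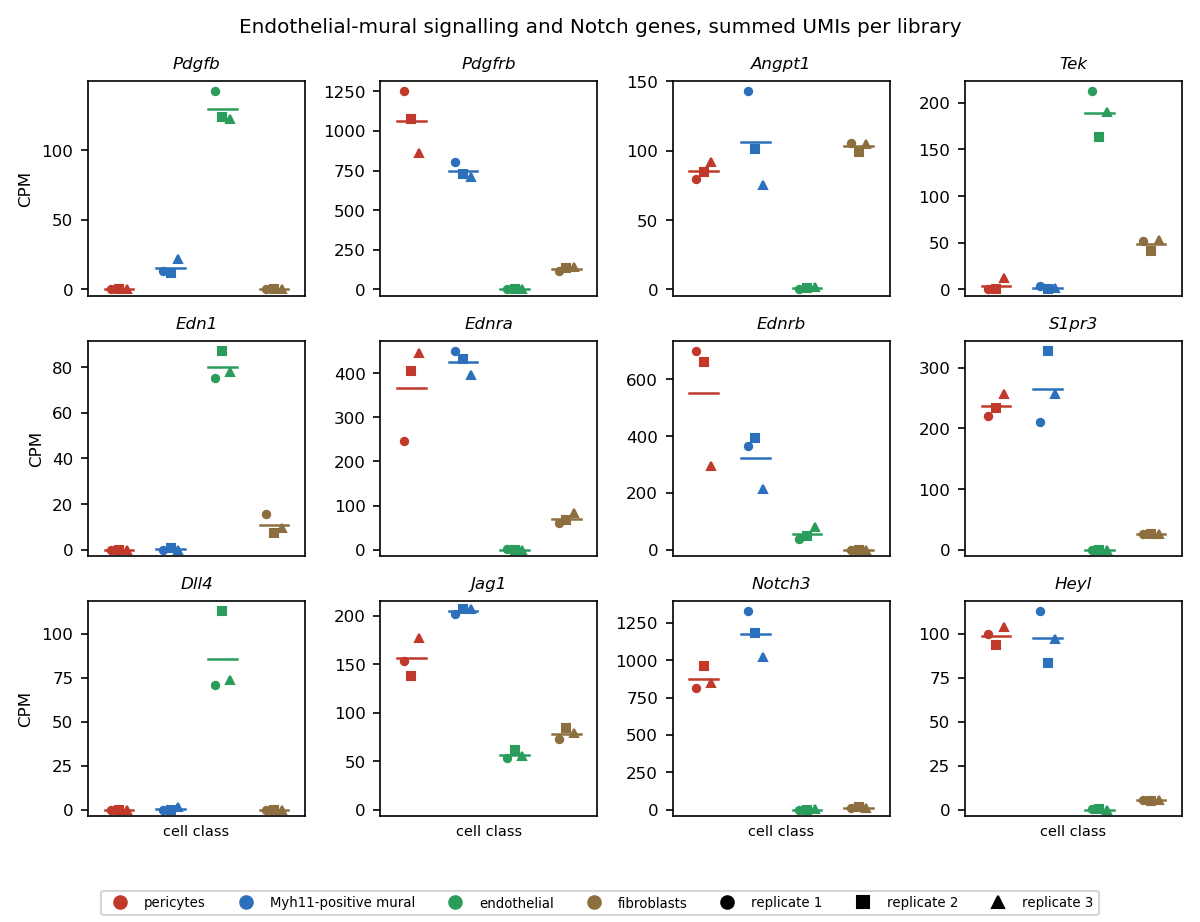
CPM of 12 signalling and Notch genes in pericytes, Myh11-positive mural cells, endothelial cells and fibroblasts, with a symbol per replicate and a line at the mean. Pdgfb, Edn1, Tek and Dll4 are high in endothelial cells and at or near 0 in pericytes, whereas Pdgfrb, Ednra (246 to 446 CPM), S1pr3, Notch3 and Heyl are high in both mural classes.

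Many receptors and channels of vessel tone were higher in pericytes than in the non-mural classes. Of 30 genes, 19 were called higher and 1 lower than in endothelial cells (median 3.28), and 22 were called higher and 3 lower than in fibroblasts (median 3.74). Cacna1c, the pore of the L-type calcium channel, was 1459, 1048 and 1056 CPM in pericytes, against 1.35, 1.14 and 5.25 CPM in endothelial cells (log2 difference 9.06 ± 0.33, edgeR adjusted p = 3.55e-11). Ano1, a calcium-activated chloride channel, was 499.6, 276 and 372 CPM in pericytes, against 2.06, 1.41 and 1.79 CPM in fibroblasts (7.73 ± 0.19, edgeR adjusted p = 6.35e-13). Trpc6, a receptor-operated cation channel, was 406, 254 and 189 CPM in pericytes and at most 1.97 CPM in endothelial cells (9.26 ± 0.57, edgeR adjusted p = 6.20e-09). Agtr1a and Adra2a, receptors for angiotensin II and noradrenaline, were 139.9, 145 and 177 CPM and 266, 334 and 305 CPM in pericytes, against at most 7.22 and 1.33 CPM in endothelial cells (6.44 ± 0.64 and 8.42 ± 0.26, edgeR adjusted p = 1.23e-06 and 8.50e-12). All pericyte libraries lay above the class named beside them in these 5 genes.

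Against Myh11-positive mural cells, none of 26 genes of this list was called higher and 4 were called lower (median −0.31 over the 30 that passed the filter), all of them ion channels. Ryr2, the calcium release channel of the sarcoplasmic reticulum, had no UMI in pericytes and was 32.2, 49.2 and 35.5 CPM in Myh11-positive mural cells, at least 10.2-fold lower in pericytes (edgeR adjusted p = 0.0101; 0.188 without replicate 2). P2rx1, an ATP-gated cation channel, also had no UMI in pericytes and was 18.1, 24.3 and 26.2 CPM in Myh11-positive mural cells, at least 5.91-fold lower (edgeR adjusted p = 0.0208; 0.0719, 0.237 and 0.0935 without replicates 1, 2 and 3). Kcnk3 and Cacna1h had 3 and 2 UMIs in pericytes and 208 and 128 in Myh11-positive mural cells, ratios of 14.3 (4.83 to 69.9) and 13.2 (3.58 to 110). The edgeR adjusted p of Kcnk3 was 0.103 and 0.262 without replicates 1 and 2, and that of Cacna1h was 0.328 and 0.219 without replicates 2 and 3. These channels, like the contractile genes, were drawn by the Myh11 limit to the extent that they travel with Myh11.

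Of 24 inflammatory mediators, 13 were called higher and 2, Vcam1 and Icam1, lower than in endothelial cells (median 1.47), 7 were called higher and 9 lower than in fibroblasts (median −0.22), and none was called in either direction against Myh11-positive mural cells (median −0.03). Il6, the cytokine interleukin 6, was 706, 1188 and 580 CPM in pericytes, against 105, 134 and 99.5 CPM in endothelial cells (2.84 ± 0.19, edgeR adjusted p = 2.10e-08) and 198, 277 and 180 CPM in fibroblasts (1.90 ± 0.18, edgeR adjusted p = 1.61e-06). Cxcl1, a neutrophil attractant, was 420, 1030 and 495 CPM in pericytes, against 28.7, 61.4 and 22.7 CPM in endothelial cells (4.13 ± 0.19, edgeR adjusted p = 2.49e-10) and 530, 855 and 443 CPM in fibroblasts (0.07, edgeR adjusted p = 0.830). Replicate 2 was the highest library for both genes in all of these classes. Ccl11, the eosinophil attractant eotaxin, was 346, 519 and 287 CPM in pericytes, against 1.35, 1.52 and 1.31 CPM in endothelial cells (8.16 ± 0.27, edgeR adjusted p = 2.00e-11).

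Other mediators were lower in pericytes than in fibroblasts. Cxcl5, a neutrophil attractant, had 3 UMIs in pericytes and 65212 in fibroblasts, a ratio of 67.0 with a counting interval of 22.9 to 325. Il33, an alarmin, was 13.3, 51.2 and 18.3 CPM in pericytes, against 291, 349 and 257 CPM in fibroblasts (−3.22 ± 0.30, edgeR adjusted p = 1.18e-06). The acute-phase gene Saa3 was 13.3, 6.68 and 0 CPM in pericytes, against 491, 524 and 234 CPM in fibroblasts (−6.38 ± 0.74, edgeR adjusted p = 9.60e-06). Pericytes lay below fibroblasts in every library for these genes.

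Interferon response genes were higher than in each other class in a minority of the list. Against Myh11-positive mural cells 3 of 11 were called higher and none lower, and all 11 differences were positive (median 0.87). Ifit1 was 120, 17.8 and 67.2 CPM in pericytes, against 15.1, 10.5 and 21.1 CPM in Myh11-positive mural cells, Ifit3 was 79.9, 17.8 and 61.1 CPM, against 9.07, 3.28 and 20.3 CPM, and Oasl2 was 120, 55.6 and 91.6 CPM, against 37.3, 25.6 and 35.5 CPM. Replicate 2 of the pericytes was the lowest in each and overlapped the Myh11-positive libraries in Ifit1 and Ifit3. These calls (edgeR adjusted p = 0.0393, 0.0319 and 0.007996) were lost without replicate 1 (0.389, 0.292 and 0.104), that of Ifit3 also without replicate 2 (0.0651), and those of Ifit1 and Oasl2 without replicate 3 (0.156 and 0.0656). Ifit1 had UMIs in 8 pericytes and Ifit3 in 9. Against endothelial cells 4 of 11 were higher and none lower (median 0.82), and against fibroblasts 3 were higher and none lower (median 0.80). Of all genes, 12.6% were called higher than in endothelial cells and 8.77% higher than in fibroblasts. Isg15, a ubiquitin-like interferon target, was 386, 160 and 122 CPM in pericytes, against 95.7, 56.1 and 82.1 CPM in endothelial cells (1.46 ± 0.25, edgeR adjusted p = 0.000304) and 84.6, 43.8 and 58.7 CPM in fibroblasts (1.80 ± 0.25, edgeR adjusted p = 5.53e-05). With cells thinned to 3000 UMIs the difference of Isg15 from endothelial cells was 0.77 (edgeR adjusted p = 0.133).

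Genes of the TGF-beta and BMP families were mixed. Against Myh11-positive mural cells 1 of 30 was called higher and 2 lower (median −0.25, or 0 with genes at 0 placed at their bound). The ligands Tgfb3 and Tgfb2 were 59.95, 42.3 and 18.3 CPM and 53.3, 49.0 and 30.5 CPM in pericytes, against 84.6, 107 and 97.2 CPM and 77.6, 99.1 and 122 CPM in Myh11-positive mural cells, without overlap. Their differences were −1.28 ± 0.25 and −1.19 ± 0.29 (edgeR adjusted p = 0.0112 and 0.0419), both lost without replicate 2 (0.228 and 0.265) or replicate 3 (0.0873 and 0.220), and that of Tgfb2 also without the cell with Fmod (0.0504). Ltbp4, which tethers latent TGF-beta to matrix, was 133, 147 and 48.8 CPM in pericytes, against 35.3, 55.1 and 38.9 CPM in Myh11-positive mural cells (1.40 ± 0.28, edgeR adjusted p = 0.0121; 0.125 and 0.244 without replicates 1 and 2). Against endothelial cells 7 of 30 were called higher and 7 lower (median 0.20), beside 12.6% and 11.4% of all genes. Against fibroblasts 4 were called higher and 12 lower (median −0.51), beside 8.77% and 10.5% of all genes. Bmp5 was 79.9, 49.0 and 48.8 CPM in pericytes, against 0.770, 0.761 and 0.328 CPM in endothelial cells (6.44 ± 0.58, edgeR adjusted p = 4.04e-07).

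Of 19 transcription factors of mural and mesenchymal cells, 13 were called higher and 1 lower than in endothelial cells (median 2.09), 9 higher and 3 lower than in fibroblasts (median 0.93), and none higher and 1 lower than in Myh11-positive mural cells (median 0.04). Foxs1, a forkhead factor of pericytes, had 45 UMIs in pericytes and 1 in endothelial cells, a ratio of 796 with a counting interval of 136 to 32119. Tbx2 was 120, 82.3 and 73.3 CPM in pericytes, against 3.09, 3.21 and 4.09 CPM in fibroblasts (4.71 ± 0.33, edgeR adjusted p = 4.31e-08), and Epas1, the hypoxia-inducible factor of vascular cells, was 773, 792 and 788 CPM, against 68.5, 82.5 and 72.2 CPM (3.40 ± 0.13, edgeR adjusted p = 6.74e-11). Foxc1 was the factor called lower than in Myh11-positive mural cells, at 33.3, 26.7 and 30.5 CPM in pericytes, against 64.5, 70.2 and 59.2 CPM (−1.19 ± 0.28, edgeR adjusted p = 0.0348; 0.0757, 0.427 and 0.105 without replicates 1, 2 and 3).

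Cell cycle genes gave little. None of 14 was called against Myh11-positive mural cells (median 0.42), and 1 was called lower against each of endothelial cells and fibroblasts. Mki67, the proliferation antigen, had a UMI in 3 pericytes with 19 of its 21 UMIs in 1 cell that also held 21 of 22 Top2a UMIs. Immediate early genes, which tissue dissociation can raise, had no call among 14 against Myh11-positive mural cells (median −0.00), and 3 higher and none lower against each of endothelial cells (median 0.76) and fibroblasts (median 0.33); Nr4a1 was 653, 1050 and 690 CPM in pericytes, against 136, 287 and 168 CPM in endothelial cells (2.04 ± 0.18, edgeR adjusted p = 4.20e-07). The part of dissociation in the results was not tested. Hypoxia and glycolysis genes had no call among 13 against Myh11-positive mural cells (median −0.20 over the 14 that passed the filter), 1 higher and 2 lower of 14 against endothelial cells (median −0.04), and 3 higher and 4 lower against fibroblasts (median −0.43). Beside these 3 lists, 12.6% of all genes were called higher and 11.4% lower than in endothelial cells, and 8.77% and 10.5% than in fibroblasts.

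Outside the lists, Ramp1, the accessory protein of the receptor for the vasodilator CGRP, was 107, 140 and 189 CPM in pericytes and had no UMI in endothelial cells, at least 648-fold higher in pericytes. Npy1r, a receptor for neuropeptide Y, had 124 UMIs in pericytes and 3 in endothelial cells, and Avpr1a, a vasopressin receptor, 51 and 2, ratios of 731 (244 to 3592) and 451 (119 to 3824). Itga7, the laminin-binding integrin alpha chain, was 180, 162 and 183 CPM in pericytes, against 0.385, 0 and 1.31 CPM in endothelial cells (8.58 ± 0.43, edgeR adjusted p = 6.18e-10). Tinagl1, a basement membrane glycoprotein gene, was 406, 396 and 458 CPM in pericytes, against 0.341, 0.314 and 0.358 CPM in fibroblasts (10.27 ± 0.21, edgeR adjusted p = 8.43e-14). Hgf, hepatocyte growth factor, had no UMI in pericytes and was 85.7, 80.2 and 101 CPM in fibroblasts, at least 22.0-fold lower in pericytes. The genes at 0 in pericytes and highest in endothelial cells included Flt4 and Reln (318, 443 and 461 CPM and 606, 669 and 761 CPM in endothelial cells), which mark lymphatic endothelium, so the endothelial class held lymphatic as well as blood endothelial cells.

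**Figure D4:**
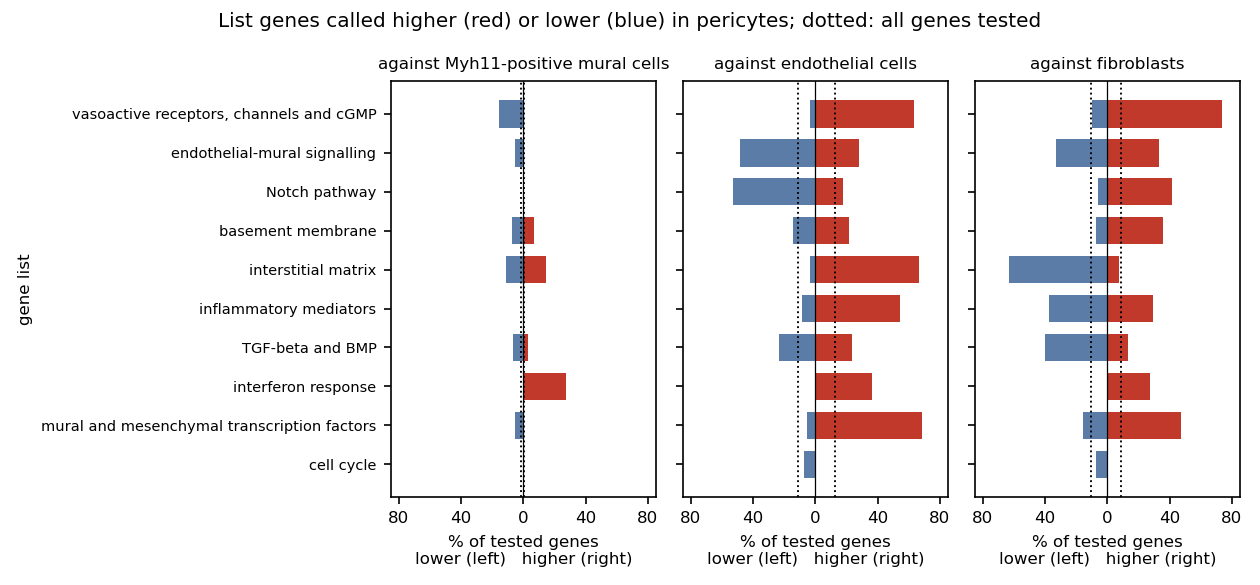
Share of the tested genes of 10 lists called higher (red, to the right) or lower (blue, to the left) in pericytes, in % on the horizontal axis, against Myh11-positive mural cells, endothelial cells and fibroblasts, with dotted lines at the shares of all tested genes. Transcription factors (13 of 19), interstitial matrix genes (18 of 27) and vasoactive genes (19 of 30) extend far to the right against endothelial cells, vasoactive genes (22 of 30) also against fibroblasts, matrix genes change side between these classes, and at most 4 genes of a list were called in 1 direction against Myh11-positive mural cells.

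The pericytes varied among themselves. Clustering of the 61 cells gave 3 subgroups of 33, 15 and 13 cells, described here without a test since the genes that lead them made them. Subgroup 1 held 6, 16 and 11 cells of replicates 1, 2 and 3 and had a median of 14055 UMIs. It held 40.5 Col1a1 UMIs per 10000, against 7.30 in the other pericytes, 64.4 Col3a1 against 19.5, and 7.96 S100a4 against 1.15. Of its Col1a1 UMIs, 482 were in the cell with a Scrublet score of 0.414 and 181 in the cell with Fmod. As medians over cells, Col1a1 was 19.8, 4.73 and 7.59 UMIs per 10000 in subgroups 1, 2 and 3. The depth of subgroup 1 ranged from 1048 to 30646 UMIs. The Acta2 level of subgroup 1 was 10.9 UMIs per 10000. Collagen and Acta2 were thus high in the same subgroup, but their extremes were in different cells. The cell with most Acta2, 137 UMIs per 10000, was a shallow cell of 1603 UMIs without a Col1a1 UMI. The cell with most Col1a1, 197 UMIs per 10000, held 6.14 of Acta2 and was among the top Scrublet scores. Another cell, with 7982 UMIs, held both, at 58.9 of Col1a1 and 42.6 of Acta2.

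Subgroup 2 held 1, 13 and 1 cells of replicates 1, 2 and 3, so it was nearly confined to 1 library and cannot be told apart from it. It held 10.7 UMIs per 10000 of Cxcl10, an interferon-inducible chemokine, against 1.87 in the other pericytes, 14.7 of Rgs16 against 4.33, and 13.1 of Cxcl1 and 14.98 of Il6. Subgroup 3 held 6, 2 and 5 cells with a median of 7086 UMIs. It held 7.95 Cpm UMIs per 10000, against 0.450 in the other pericytes, and 6.20 Pde7b against 1.35. The same cells had 19.3 Abcc9 and 6.30 Kcnj8 UMIs per 10000 and only 0.582 Acta2, with an Acta2 UMI in 4 of 13 cells. The potassium channel genes Abcc9 and Kcnj8 and Acta2 therefore ran in opposite directions among the members. As medians over cells, Abcc9 was 5.56, 6.96 and 15.2 UMIs per 10000 and Acta2 was 6.68, 3.94 and 0 in subgroups 1, 2 and 3. Subgroup 3 was the shallowest by median, and the part of depth in the split was not tested.

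**Figure D5:**
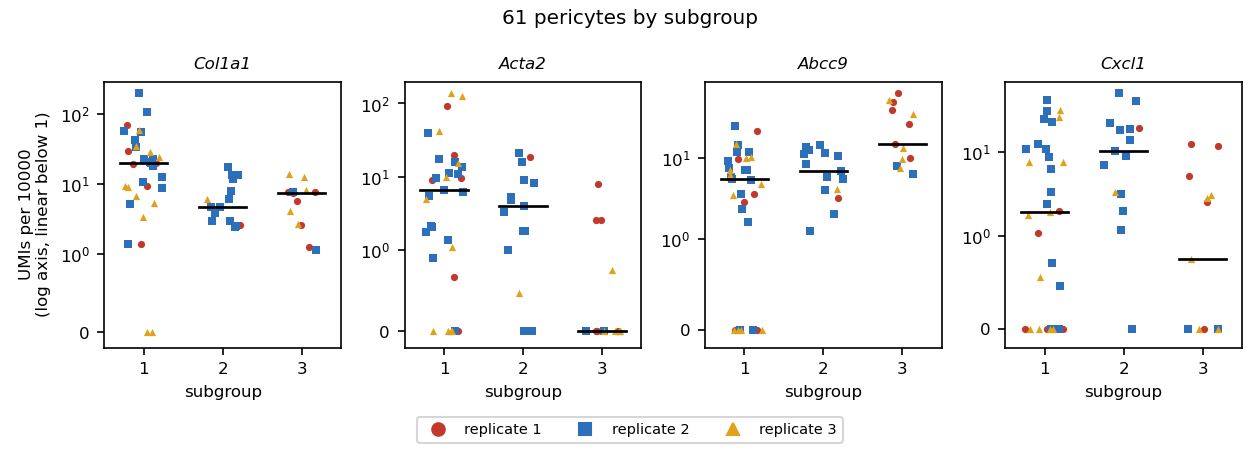
UMIs per 10000 of Col1a1, Acta2, Abcc9 and Cxcl1 in each of the 61 pericytes by subgroup, with the color and symbol giving the replicate and a line at the median (axis linear below 1 and log above). Col1a1 is highest in subgroup 1 (median 19.8), Abcc9 in subgroup 3 (15.2) and Cxcl1 in subgroup 2 (10.2), and most Acta2 values of subgroup 3 are 0.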

How the data were processed

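The deposited files hold UMI counts per gene and barcode, as the authors deposited them, for 3 libraries of 1 group. Cell Ranger 6.1.2 is named in the submitters' processing notes, while the software version per the file headers is 7.0.0. The genome build is not given in the sources used here. Of 32285 gene IDs, 32158 were found in the reference gene table; promoters came from RefSeq (GRCm38.p6). Library totals were 136519688, 192348779 and 104482261 UMIs.

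Counts were summed per gate and library, and 12 sums (4 classes in 3 libraries) were fitted together with edgeR 4.0.16 (filterByExpr, TMM, quasi-likelihood test, library as a block) in R 4.3.3 with limma 3.58.1, giving 12051 genes. The fit was tested on simulated data. The block pairs classes from the same suspension and takes out differences between libraries. Each p-value thus rests on how class differences varied between libraries, with the spread shared over the 4 classes. Genes used by a gate, and for the Myh11-positive comparison the pericyte marker and contractile lists, were not tested. Gates, clusters (Leiden, resolution 0.5, 10 components, 2000 variable genes) and Scrublet scores (0.8% of barcodes per 1000 barcodes counted as top) used Python 3.11.15, scanpy 1.11.5, numpy 2.4.6, scipy 1.17.1 and pandas 2.3.3; figures used matplotlib 3.10.9. Barcodes with high scores were kept in the main result. Intervals and floors cover counting error only.

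The members and the gene lists were chosen with earlier results of these data known. Genes were named by rule: signalling and Notch genes of at least 10 CPM in a class, up to 4 called genes with the largest difference in each other list, the 10 called genes of largest difference in each direction outside the lists with at least 50 CPM in each library of the higher class, and the marker lists. Those outside the lists also had the same direction in all 3 libraries. Where libraries are said to lie apart, the share of all genes that do so is not given. Col1a1, Col3a1, Col4a1, Col5a3, Il6, Cxcl10, Agtr1a, Adra2a, Il33, Ifit3 and Isg15 were, where the rule did not name them, chosen after their values were seen. Alternatives were RLE size factors, DESeq2 1.42.0, no count filter, no block, only the classes compared, each library left out, Scrublet top scores left out, a stricter gate (Rgs5 at least 5, the 3 genes at least 10), Myh11-positive cells that pass the Rgs5 gate, a denominator without Ptprc-positive barcodes, and at least 5000 UMIs. Chosen after seeing the data were cells of 5000 to 20000 UMIs, a Myh11 limit of 3 per 10000 UMIs, thinning to 3000 UMIs, and leaving out the cell with Fmod. Thinning also left out the cells of all classes with fewer than 3000 UMIs.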

Additional observations from a re-analysis of the deposited data

How the results depend on the processing

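Depth and cell number limit the pericyte values: 3 UMIs over the group are the floor, and the sums rest on 13, 31 and 17 cells. Among barcodes without a Ptprc UMI the pericyte share was 0.509%, against a range of 0.301% to 0.376% with a library left out. Against Myh11-positive mural cells, the 57 genes called higher became 146 without the count filter, 34 with no replicate block, 17 to 35 with a library left out, 28 with cells thinned to 3000 UMIs, 27 with Myh11-positive cells that pass the Rgs5 gate, and 118 with DESeq2. Of these, 32 of the 34 without the block and 11 of the 28 thinned calls were among the 57. The 193 genes called lower became 335 without the count filter, 71 to 143 with a library left out, 110 thinned and 94 with the Rgs5 gate. With only the 2 mural classes in the fit, 52 genes were called higher and 178 lower, of which 37 and 156 were among the main calls. Tgfb2, Tgfb3 and Foxc1 lost their calls there (edgeR adjusted p = 0.0778, 0.0534 and 0.106). Thinning also gave 827 genes higher than in endothelial cells and 587 higher than in fibroblasts, where 1512 and 1056 were called. No called gene was called in the opposite direction under any alternative. Of the named genes that were called, 10 of 42 kept the call under every alternative against Myh11-positive mural cells, 92 of 119 against endothelial cells and 81 of 104 against fibroblasts. The difference of S100a4 from Myh11-positive mural cells turned to −1.16 with cells of 5000 to 20000 UMIs, and that of Fmod from endothelial cells (6.15) to −6.52 without replicate 2 (up to 6.33 with another library left out), −7.80 with the stricter gate and −7.80 without the cell that held its UMIs. The cause of these shifts was not tested, apart from the Fmod cell. Thinning both lowered the UMIs per cell and left out the shallowest cells, and their parts in the lost calls cannot be told apart. Leaving out the Fmod cell also took the call from Dcn against endothelial cells (1.00, edgeR adjusted p = 0.0820).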
